A study of Caenorhabditis elegans with 3 samples.

Results

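Small nucleolar RNA (snoRNA) genes that lie outside protein-coding genes were examined for the presence of RNA polymerase III (Pol III) in *Caenorhabditis elegans*. They were all nuclear genes of type snoRNA in the RefSeq annotation of WBcel235, the same sequence as ce11, that do not lie wholly inside the body of a protein-coding gene. There were 133 such genes among 346 nuclear snoRNA genes and 46890 nuclear genes of all types, and the other 213 snoRNA genes lie inside protein-coding genes. Of the 133, 6 overlap a protein-coding gene in part. The data are peak lists from chromatin immunoprecipitation with sequencing (ChIP-seq) of RPC-1, the largest Pol III subunit. They come from whole young adult hermaphrodites of strain YL517, a stable transgenic line in which GFP and FLAG are fused to the C-terminus of RPC-1, immunoprecipitated with anti-GFP. All samples form 1 group of 3 biological replicates, so no treated group or wild type is compared, and a signal is an average over all tissues of the animal. The promoter that drives the fusion is not given in the sources used here, and the lists hold no read numbers, so the depth behind each list is unknown.

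snoRNAs guide the chemical modification of ribosomal and other RNAs: C/D box snoRNAs, with the fibrillarin complex, direct ribose methylation, and H/ACA box snoRNAs, with the dyskerin complex, direct pseudouridylation. In many animals most of them are cut out of introns of RNA polymerase II transcripts, whereas others have promoters of their own. Pol III reads type 2 promoters, such as those of tRNA genes, through an A box and a B box bound by TFIIIC, and it ends transcription at a run of T.

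A gene is called occupied here where a peak of the reproducible ce11 list covers at least 1 bp of it. The reproducible list is the set of peaks that the authors kept for holding their ranks between replicates, 1914 of them on the nuclear chromosomes. These 1914 entries hold 1673 distinct intervals, so some intervals are listed more than once, and ranks count entries. Of the 133 snoRNA genes outside protein-coding genes, 34 were occupied, a share of 25.6% (exact 95% interval 18.4 to 33.8), against 4.91% of all nuclear genes. The interval covers the counting of genes only. Those 34 genes had 34 distinct summits, and none of them had another snoRNA gene within 500 bp, so no peak was counted for more than 1 of them.

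In the DNA just before the annotated starts, 2 kinds of sequence recurred at the occupied genes. The first holds an A box and, after it, the letters GTTCNA, which are the core of the B box; the pair is shown for 7 occupied genes because no unoccupied gene had it. Each line runs 5′ to 3′ in the direction of the snoRNA, from 80 bases before the start to the tenth base of the gene, in WBcel235 (ce11) coordinates, and the capitals mark the A box and the core.
F32E10.10 (chrIV:7574042-7574131, plus strand): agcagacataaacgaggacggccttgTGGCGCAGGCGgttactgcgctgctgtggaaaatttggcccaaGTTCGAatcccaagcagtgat
T06C12.16 (chrV:15873917-15874006, minus strand): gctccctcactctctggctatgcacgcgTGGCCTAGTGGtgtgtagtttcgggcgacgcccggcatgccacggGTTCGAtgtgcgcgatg
C41C4.11 (chrII:8107261-8107350, minus strand): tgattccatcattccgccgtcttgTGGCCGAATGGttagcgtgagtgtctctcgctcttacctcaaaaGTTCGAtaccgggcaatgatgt
W03C9.9 (chrII:11960818-11960907, plus strand): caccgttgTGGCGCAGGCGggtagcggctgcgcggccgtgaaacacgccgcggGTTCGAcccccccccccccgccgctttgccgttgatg
F12F6.11 (chrIV:11549855-11549944, minus strand): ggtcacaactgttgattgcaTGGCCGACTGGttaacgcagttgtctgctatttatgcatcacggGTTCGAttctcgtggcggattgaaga
ZK643.9 (chrIII:8937687-8937776, plus strand): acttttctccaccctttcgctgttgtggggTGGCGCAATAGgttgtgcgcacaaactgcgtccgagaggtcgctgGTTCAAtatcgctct
K09E9.5 (chrX:15619411-15619500, plus strand): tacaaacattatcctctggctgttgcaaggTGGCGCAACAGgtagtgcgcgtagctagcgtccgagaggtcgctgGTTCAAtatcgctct

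The second kind holds the letters GCGGAAC at about the same distance from the start as the A box. GCGGAAC stood before 6 of 34 occupied and 9 of 99 unoccupied genes. It is shown, in capitals, for those 6 and for 2 of the 9. The lines cover the same stretch as above, except that the line of Y53F4B.47 begins 90 bases before the start.
C16D9.10 (chrV:8247952-8248041, minus strand): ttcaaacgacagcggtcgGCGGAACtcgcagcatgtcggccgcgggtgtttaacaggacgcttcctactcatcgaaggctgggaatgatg
T08B6.64 (chrIV:4880841-4880930, minus strand): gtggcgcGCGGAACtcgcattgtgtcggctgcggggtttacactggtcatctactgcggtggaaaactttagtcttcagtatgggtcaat
T26A8.6 (chrIV:8428730-8428819, minus strand): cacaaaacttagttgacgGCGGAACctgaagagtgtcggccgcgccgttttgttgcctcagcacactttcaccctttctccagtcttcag
Y53F4B.47 (chrII:15025884-15025983, minus strand): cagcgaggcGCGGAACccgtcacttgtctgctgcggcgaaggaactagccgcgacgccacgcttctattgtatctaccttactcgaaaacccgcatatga
F43A11.8 (chrV:11585352-11585441, minus strand): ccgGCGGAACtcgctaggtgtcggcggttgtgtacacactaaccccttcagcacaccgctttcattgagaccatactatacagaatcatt
W03B1.17 (chrIV:4347552-4347641, plus strand): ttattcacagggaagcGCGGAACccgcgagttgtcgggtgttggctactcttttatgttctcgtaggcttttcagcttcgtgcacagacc
smy-3 (chrV:14092492-14092581, plus strand): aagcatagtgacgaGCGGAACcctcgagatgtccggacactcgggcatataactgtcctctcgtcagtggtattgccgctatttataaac (not occupied)
Y67A10A.14 (chrIV:14327112-14327201, minus strand): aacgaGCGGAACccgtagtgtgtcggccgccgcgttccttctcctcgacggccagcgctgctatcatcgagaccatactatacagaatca (not occupied)

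The ends of 4 strongly occupied genes are shown because Pol III stops at T runs. Each line holds the last 30 bases of the gene and the 20 bases after it, and the capitals mark runs of at least 4 T after the end of the gene.
T06C12.16 (chrV:15873835-15873884, minus strand): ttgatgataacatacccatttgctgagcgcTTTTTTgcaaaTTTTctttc
W03C9.9 (chrII:11960930-11960979, plus strand): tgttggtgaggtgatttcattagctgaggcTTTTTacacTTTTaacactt
F12F6.11 (chrIV:11549773-11549822, minus strand): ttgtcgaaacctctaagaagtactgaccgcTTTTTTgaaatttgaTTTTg
H09I01.2 (chrIV:8253136-8253185, plus strand): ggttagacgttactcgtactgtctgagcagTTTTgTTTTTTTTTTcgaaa

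The signal of a peak is the authors' peak caller's own value, and it was used only within a list, to describe, compare and rank its peaks, rank 1 being the strongest. At the occupied genes the reproducible signal fell into a high and a low group with few values between. It was 3819 or more at 22 genes, all of them among the first 250 ranks and 15 of them among the first 100. It was 2694, 2050 and 1077 at C16D9.10, K09E9.5 and Y59E1B.14. At the other 9 it lay between 80.3 and 714. The strongest genes held their places in every replicate.

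T19B4.8 had a reproducible signal of 7938 at rank 4, and its ranks in replicates 1, 2 and 3 were 5, 3 and 4. F32E10.10 had a signal of 7827 at rank 6, with replicate ranks 14, 6 and 7. ZK265.10 had a signal of 7307 at rank 11 and stood higher in each replicate, at ranks 7, 8 and 5. These genes were thus among the 14 strongest peaks of the genome in all 3 replicates. T02E1.9 followed with a signal of 6860 at rank 17 and replicate ranks 20, 10 and 19. T06C12.16 had a signal of 6660 at rank 19 and replicate ranks 16, 27 and 22. H09I01.2 had a signal of 6291 at rank 27 and replicate ranks 45, 36 and 40. H09I01.2 is the exception in sequence: the other strong genes matched at least 1 of the Pol III promoter elements described below, and it matched none as spelled there. Those searches allow no mismatch in the A box or GTTCNA and at most 1 in the B box. Looser spellings were not counted, so H09I01.2 is not shown to lack such elements. Y23H5B.10 had a signal of 5720 at rank 39 and replicate ranks 17, 25 and 21, and T27A3.9 had 5598 at rank 44 and replicate ranks 55, 74 and 61. Y75B12B.12 had a signal of 5266 at rank 59 and replicate ranks 43, 38 and 36.

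From C41C4.11, with a signal of 5166, to F12F6.11, with 4870, 6 genes lay between ranks 67 and 98. Among them W03C9.9 ranked higher in each replicate (34, 22 and 42) than in the reproducible list (79). C41C4.11 ranked lower in each (110, 127 and 81) than its reproducible rank of 67. ZK643.9 had a signal of 4386 and ranks 197, 197 and 215 in the replicates, against rank 141 in the reproducible list. T10B9.11 showed the opposite shift: its signal of 4162 put it at rank 174, while the replicates had it at ranks 40, 75 and 67. C53B7.8 behaved like T10B9.11, with a signal of 3819 at rank 231 and replicate ranks 106, 90 and 82. Such shifts stayed within the strong group. Over the 34 genes the order of ranks had Spearman coefficients of 0.943 to 0.988 between any pair of the 4 lists. These are given as a description, since genes are not replicates and the lists are not independent. They span the strong and weak genes together and do not measure the order within the strong group.

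**Figure D1:**
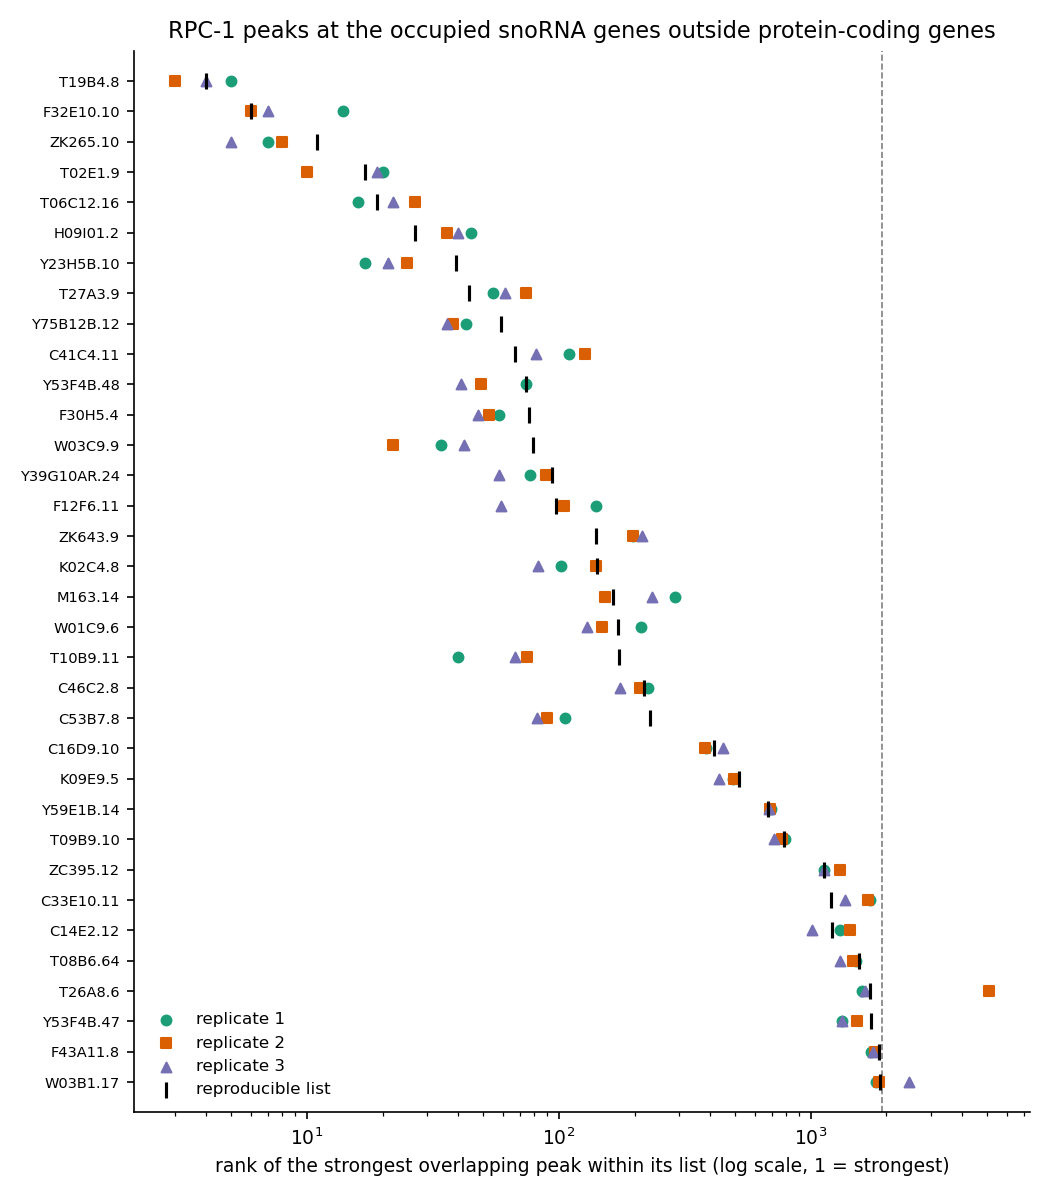
Rank of the strongest peak over each of the 34 occupied snoRNA genes outside protein-coding genes, in the 3 replicate lists and the reproducible list (horizontal log axis, 1 = strongest), with genes ordered by reproducible rank; the dashed line marks rank 1914. The strongest 22 genes sit within the first 250 ranks of the reproducible list, and T26A8.6 in replicate 2 and W03B1.17 in replicate 3 lie past the line.

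The replicate lists also hold weak peaks and background, so the strongest 1914 peaks of each were used to compare replicates on the same footing. They covered 41, 37 and 41 of the 133 genes in replicates 1, 2 and 3, or 29.8% ± 1.74 (SD, n = 3), while the share of all nuclear genes was 4.74%, 4.65% and 4.88%. Of the 34 genes in the reproducible list, 32 were covered in all 3 replicates. The exceptions were weak: T26A8.6, with a reproducible signal of 106, stood at rank 5105 in replicate 2, and W03B1.17, with 80.3, stood at rank 2449 in replicate 3. Each chromosome had some: 6 of 30 genes were occupied on chromosome I, 7 of 28 on II, 3 of 11 on III, 7 of 23 on IV, 4 of 17 on V and 7 of 24 on X. The share of all genes is not given for each chromosome, so these counts are not read as differences between chromosomes.

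Summits of strong peaks lay mostly just before the snoRNA. At 32 of the 34 genes the summit was within 300 bp of the gene, and at 25 of those it lay upstream of the annotated start. At the 21 strong genes with a summit of their own it lay, in the reproducible list, between 94 and 2 bp before the start, with a median of 49 bp before it. In replicates 1, 2 and 3 it lay before the start at 20, 19 and 20 of the 21. The exceptions were K02C4.8, 16 bp before the start in the reproducible list but 11 bp after it in all 3 replicates, and ZK643.9, 6 bp after it in replicate 2. At T19B4.8 the summit was 54 bp before the start in the reproducible list and 56, 55 and 55 bp before it in the replicates. At F32E10.10 it was 47 bp before the start in the reproducible list and 48, 48 and 51 bp before it in the replicates. Some genes had looser summits: at T02E1.9 it was 54 bp before the start in the reproducible list and 44, 35 and 23 bp before it in the replicates. At the 9 weak genes the reproducible summits spread from 44 bp before to 101 bp after the start, with a median of 48 bp after it, and medians of 53, 29 and 29 bp after it in replicates 1, 2 and 3. These positions are loose: T26A8.6, F43A11.8 and W03B1.17 have peaks of exactly 600 bp, the commonest width in the list, with the summit at the middle. At F43A11.8 the summit was 140 bp after the start in replicate 1, 41 bp before it in replicate 2 and 47 bp after it in replicate 3. At C14E2.12 it was 30 bp after the start in the reproducible list and 16, 19 and 12 bp before it in the replicates. Weak peaks were also narrower, with a median width of 588 bp, against 922 bp for the strong ones.

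At M163.14 and C16D9.10 the peak also covered a tRNA gene, and the summit lay away from the snoRNA. The summit at M163.14 lay 422 bp after its start, in a peak of signal 4217 that also covers the tRNA gene M163.t2. The summit at C16D9.10 lay 462 bp after its start, in a peak of signal 2694 that also covers the tRNA gene C16D9.t4. At Y59E1B.14, with a signal of 1077, the A box and core lie in a stretch annotated as the tRNA pseudogene Y59E1B.t1, which overlaps the start of the snoRNA gene. Requiring a summit within 300 bp left 32 occupied genes.

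**Figure D2:**
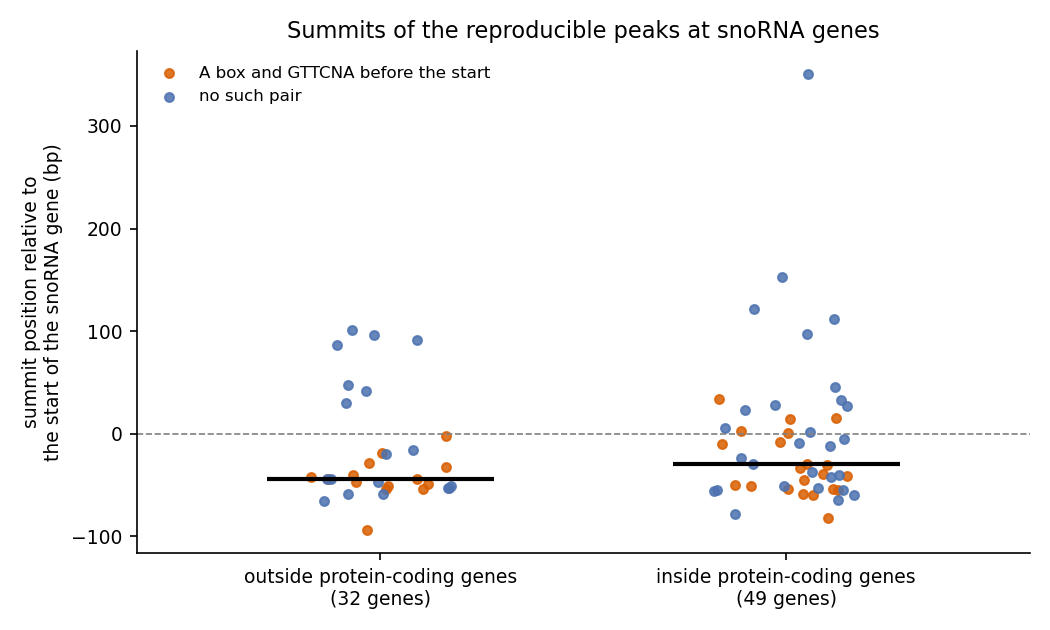
Position of the reproducible summit relative to the annotated start of each occupied snoRNA gene (vertical axis, bp, negative values before the start), for 32 genes outside and 49 genes inside protein-coding genes with a summit within 300 bp of the gene; each point is a gene, the sideways spread is only for visibility, and black bars are medians. The medians are −44 bp outside and −29 bp inside, and genes with an A box and GTTCNA before the start lie close to the start or before it.

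Matches to elements of type 2 Pol III promoters (A box, GTTCNA or B box) stood before 24 of the 34 occupied genes. The B box consensus, with at most 1 mismatch, was sought on the sense strand from 150 bp before the start to the end of the gene. It was found at 17 of 34 occupied genes (50%), against 3 of 99 unoccupied genes (3.03%), 47.0 percentage points higher (two-sided Fisher exact test, p = 1.38e-09, adjusted p = 9.63e-09 by Benjamini-Hochberg over 7 tests). The same search found it at 1.47% of protein-coding starts and in 1.78% of windows of the genome, 285 bp long. At 15 of the 17 the match began before the start of the snoRNA, and the median position over the 17 was 13 bp before it. Only T27A8.9 among the unoccupied genes had a B box before its start, and no peak of any replicate covered it. T27A8.8 and W06D12.9, the other unoccupied genes with a match, had it inside the gene.

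The A box, in its exact consensus within the last 100 bp before the start, was followed 20 to 70 bp later by GTTCNA at 14 of 34 occupied genes, against 0 of 99 unoccupied genes. This pair was chosen after the sequences of the occupied genes had been seen, so its counts are a description and were not tested. The pair was found at 0.0901% of protein-coding starts and in 0.243% of windows of the genome. The genome was cut into 668480 windows for the pair and 351831 for the B box, so their shares are not directly comparable. Taken singly, the A box was found at 17 occupied and 6 unoccupied genes, and GTTCNA at 19 occupied and 6 unoccupied genes. Any match of GTTCNA can be part of a B box match, so these searches overlap. In the pairs the A box began between 76 and 50 bp before the start, and the core between 27 and 5 bp before it, with a median spacing of 44 bp. In most pairs both elements ended before the annotated start, as the sequences above show for F32E10.10 and T06C12.16, while at ZK643.9 and K09E9.5 the last base of the core is the first base of the annotated gene. At the 11 strong genes with a pair the summit was a median of 10 bp after the first base of the A box.

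The 14 genes with a pair had reproducible signals between 301 and 7938, with a median of 4977. Of the 21 strong genes with a summit of their own, 20 had an A box, GTTCNA or a B box before the start, against 12 of the 99 unoccupied genes and 1 of the 9 weak genes. That weak gene was ZC395.12, which had a pair but a signal of only 301 and overlaps gro-1 in part. This wider search includes elements chosen after the sequences had been seen and was not tested. Its share over genome windows was not measured, and 28 of 163 unoccupied nested genes also matched. Every strong gene with a summit of its own had a T run within 50 bp of its end.

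Runs of at least 4 T within 50 bp after the gene were found at 31 of 34 occupied genes (91.2%), against 56 of 99 unoccupied genes (56.6%), 34.6 percentage points higher (two-sided Fisher exact test, p = 0.000145, adjusted p = 0.000508 by Benjamini-Hochberg over 7 tests). Such runs are common in this genome: 62.2% of protein-coding genes had one after their end, and 51.3% of genome windows of 50 bp held one. Where there was a run, it began a median of 5 bp after the end of occupied genes and 21.5 bp after the end of unoccupied genes. It began within 10 bp at 24 occupied and 16 unoccupied genes. M163.14, ZC395.12 and F43A11.8 were the occupied genes without a run, the first in a peak shared with a tRNA gene and the others in the weak group.

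**Figure D3:**
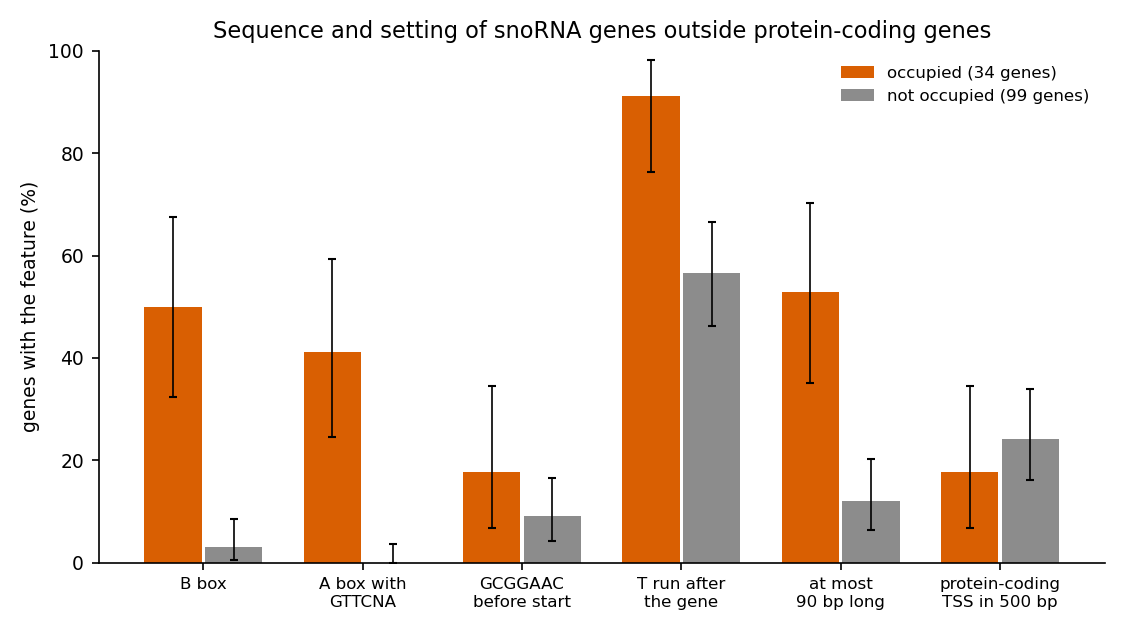
Share of snoRNA genes outside protein-coding genes that have each feature (vertical axis, percent), for the 34 occupied genes (left bars) and the 99 unoccupied genes (right bars), with exact 95% binomial intervals as error bars. The B box and the T run differ most among the tested features (50% against 3.03%, and 91.2% against 56.6%), and the pair of A box and GTTCNA was at 0 of the 99 unoccupied genes.

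Occupied snoRNA genes had the shorter annotations, given here as a description with no test. Their median annotated length was 83 bp, from 62 to 200, against 157 bp, from 65 to 344, for unoccupied genes. Of the 30 genes of at most 90 bp, 18 were occupied (60%), whereas 16 of the 103 longer genes were. The annotation does not say which family a gene belongs to, so boxes were read from the sequence. A C box TGATGA in the first 30 bases together with a D box CTGA in the last 30 was found at 3 of 34 occupied genes and 2 of 99 unoccupied genes, and this 6.80 point difference missed the threshold (two-sided Fisher exact test, p = 0.105, adjusted p = 0.246). The call depended on the spelling: with 1 mismatch allowed in the C box, an alternative added after the data were seen, the difference was 33.2 points (Fisher exact test, adjusted p = 3.17e-05). With the reproducible list set aside and genes called where the strongest 1914 peaks of both replicates 2 and 3 covered them, it was 10.4 points (Fisher exact test, adjusted p = 0.0396). The letters ACA within the last 10 bases, as at the tail of H/ACA snoRNAs, were present at 10 of 34 occupied and 20 of 99 unoccupied genes.

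Most occupied genes with GCGGAAC lay at the lower edge of the list. It stood before 15 of the 133 genes, 6 of 34 occupied (17.6%) and 9 of 99 unoccupied (9.09%), between 81 and 61 bp before the start. The motif was found in the 150 bp before 0.270% of protein-coding starts and in 0.379% of genome windows of that length. It too was picked after the sequences were seen, and its counts were not tested. None of the 21 strong genes with a summit of their own had it, and 5 of the 9 weak genes did. These were T08B6.64, T26A8.6, Y53F4B.47, F43A11.8 and W03B1.17, with reproducible signals of 144, 106, 103, 81.2 and 80.3. The sixth, C16D9.10, is in the peak shared with a tRNA gene.

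Weak peaks also lay over most genes with GCGGAAC that the reproducible list leaves out. Of the 15 genes, 14 had some peak in the whole list of every replicate, including 8 of the 9 unoccupied ones, whereas 14 of the other 90 unoccupied genes did. For all nuclear genes that share was 16.9%. The whole lists include background by design, and the strongest 1914 peaks of at least 1 replicate covered 5 of the 9 unoccupied genes, against 5.29% of all nuclear genes. Those of every replicate covered 4 of the 15, all of them occupied, against 4.31% of all nuclear genes. The unoccupied gene smy-3, which has the motif, had ranks 1651, 1987 and 2230 in replicates 1, 2 and 3. Y67A10A.14 had ranks 2142, 1874 and 1902. Not all of these peaks stood high in every list. C06E7.95 was at rank 28811 of 29975 in replicate 3, and C18A3.12 was at rank 16025 in replicate 1. K02F6.11 alone lacked a peak in a replicate, with none in replicate 1 and ranks 19040 and 22418 in replicates 2 and 3.

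Some of these snoRNA genes are near copies of each other, so reads could be split or lost between them in ways the lists do not show, and such genes are not independent. ZK643.9 and K09E9.5 share 94.7% of their bases and the same pair of A box and core, and had signals of 4386 and 2050. C46C2.8 and C53B7.8 share 94.5% and had signals of 3928 and 3819. T08B6.64 and T26A8.6, both with GCGGAAC, share 85.7% and had signals of 144 and 106. F43A11.8, with a signal of 81.2, shares between 85.4% and 87.9% of its bases with F59C6.15, F25H2.15 and Y67A10A.14, which were not occupied and also carry GCGGAAC. Its closest copy among the snoRNA genes was the nested gene T19C4.12, at 94.4%, which was not occupied either. The effect of copy number on the calls was not tested.

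Some of the 99 unoccupied genes had peaks in the whole replicate lists, which include background. There, 22 of them had a peak in all 3 replicates, 17 in 2, 15 in 1 and 45 in none. Of all nuclear genes, 16.9% had a peak in all 3 replicates. Among the unoccupied genes without GCGGAAC it was 14 of 90, so the count is not read as particular to these genes. The share with a peak in a given replicate averaged 38.7% ± 5.83 (SD, n = 3), while 28.8%, 29.4% and 32.7% of all nuclear genes had one in replicates 1, 2 and 3. K07C10.2 came closest to a call, at ranks 1841, 1762 and 1617, all within the strongest 1914 of each replicate, yet no reproducible peak covered it. No other gene of the 99 was in that position. W05G11.7 had ranks 1710, 1566 and 2703, Y74C9A.6 had 1761, 2677 and 1669, and F47G4.9, which has GCGGAAC, had 1769, 2014 and 1706. C18A3.12, also with GCGGAAC, was near the threshold in replicates 2 and 3 (ranks 1806 and 1703) but at rank 16025 in replicate 1. At the other end, 44 of the 133 genes had no peak in any ce11 list, the pooled list included; the first in genome order were T13E5.1, F32B5.17, Y119C1B.13, T28B8.11 and F30A10.16, all on chromosome I.

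Occupancy close to a neighbouring promoter was not distinguishable from that farther away. A protein-coding transcription start site (TSS) lay within 500 bp of 30 of the 133 genes. Of those 30, 6 were occupied (20%), against 28 of the 103 genes farther away (27.2%), a difference of −7.18 points (two-sided Fisher exact test, p = 0.485, adjusted p = 0.566). With a limit of 250 bp the sign turned, to 2.56 points, again short of the threshold. The nearest TSS was a median of 1285.5 bp from occupied genes and 1547 bp from unoccupied ones. A reproducible peak came within 250 bp of the neighbour's TSS at all 6 of the occupied genes and at 0 of the 24 unoccupied ones. The choice of genes nearly fixes this contrast. Each of the 6 has a peak over it and a TSS within 500 bp, and strong peaks had a median width of 922 bp. The counts therefore do not show peaks that belong to the promoters. Over all protein-coding genes, 1.57% had a peak that near. The peak covered the neighbour's TSS itself at 3 of the 6, K02C4.8, C41C4.11 and Y75B12B.12. In each of the 6 the summit was nearer to the snoRNA start than to the TSS. At K02C4.8, 117 bp from the TSS of K02C4.2, the summit was 16 bp from the snoRNA start and 267 bp from the TSS. At C41C4.11, 225 bp from the TSS of chst-1, a carbohydrate sulfotransferase gene, these distances were 51 and 350 bp. At Y53F4B.48, 186 bp from gst-27, a glutathione transferase gene, they were 59 and 379 bp. Y75B12B.12 is the closest case on the other strand, 203 bp from the TSS of Y75B12B.11, with distances of 42 and 161 bp. ZK265.10 lies 498 bp from the chemoreceptor gene sre-23, with distances of 65 and 624 bp. The weak gene Y53F4B.47 lies 221 bp from cmtr-1, which encodes an mRNA cap methyltransferase, with distances of 44 and 177 bp.

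Most strong genes stand farther from any promoter. T19B4.8 lies 4890 bp from the nearest TSS, that of pamn-1, and F32E10.10 lies 1990 bp from cec-4, a chromodomain protein gene. T02E1.9 lies 1465 bp from T02E1.2 and overlaps spe-12 in part, and T06C12.16 lies 1282 bp from str-56, a gene of the chemoreceptor family. H09I01.2 lies 6839 bp from K07H8.7, F30H5.4 lies 9328 bp from F30H5.3, and Y23H5B.10 lies 16034 bp from Y23H5B.5. The other strong genes of the first 20 lay between 822 and 3689 bp from a TSS: T27A3.9 (T27A3.8, 874 bp), W03C9.9 (W03C9.1, 1169 bp), Y39G10AR.24 (zwl-1, 3689 bp), F12F6.11 (M04B2.7, 1022 bp), ZK643.9 (arrd-15, 3532 bp), M163.14 (M163.11, 851 bp), W01C9.6 (glb-27, 1292 bp) and T10B9.11 (ZK1321.4, 822 bp). High signals were thus found both close to and far from promoters.

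**Figure D4:**
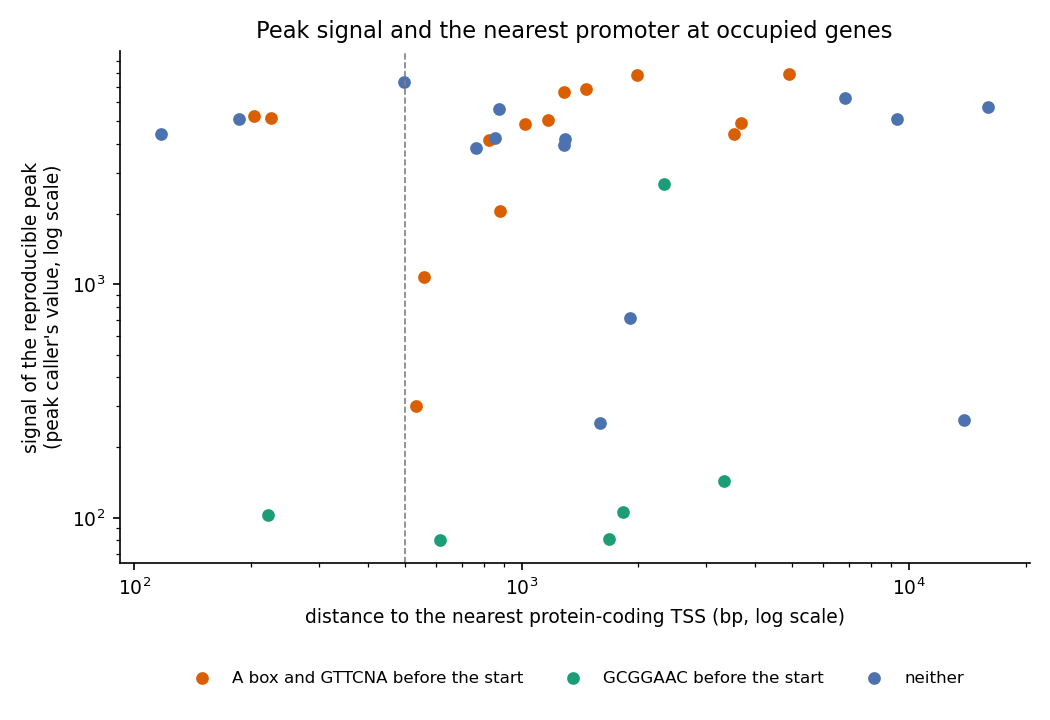
Reproducible peak signal (vertical log axis, peak caller's value) against the distance from the snoRNA gene to the nearest protein-coding TSS (horizontal log axis, bp) for the 34 occupied genes, coloured by the sequence before the start; the dashed line marks 500 bp. Signals above 3819 occur on both sides of the line, and 5 of the 6 genes with GCGGAAC have signals of 144 or less.

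The snoRNA genes inside protein-coding genes are the most similar set. Occupancy was 25.6% outside protein-coding genes (34 of 133) and 23.5% inside them (50 of 213, exact 95% interval 17.95 to 29.7), and this difference of 2.09 points missed the threshold (two-sided Fisher exact test, p = 0.6997, adjusted p = 0.6997). The median reproducible signal was 4300 at the 34 genes outside (quartiles 805 and 5241) and 3019 at the 50 inside (quartiles 1039 and 5308), a difference of 1281 (two-sided permutation test, p = 0.193, adjusted p = 0.315). The median summit was 44 bp before the start outside (n = 32) and 29 bp before it inside (n = 49), a difference of −15 bp (two-sided permutation test, p = 0.225, adjusted p = 0.315). In sequence, the pair of A box and GTTCNA was at 14 of 34 occupied genes outside, as given above, and at 21 of 50 occupied nested genes and 0 of 163 unoccupied nested genes. The B box was at 22 of the 50 and 4 of the 163, and GCGGAAC at 4 of the 50 and 5 of the 163. These differences between outside and inside were not tested. The highest signal, 9672, was at the nested genes C51F7.4 and C51F7.3, in frm-7, which share 1 peak.

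For the protein genes of the snoRNA particles, 0 of 8 had a reproducible peak within 250 bp of a TSS. With 1.57% of all protein-coding genes having one, a count of 0 among so few says nothing particular about them. They were the C/D particle genes fib-1 (fibrillarin), nol-56, nol-58 and snu-13, and the H/ACA particle genes dkc-1 (dyskerin), garr-1, Y48A6B.3 and nola-3. In the whole replicate lists their ranks varied widely. fib-1, among the best placed, had ranks 2426, 2577 and 1911. nola-3 had ranks 21867 and 20082 in replicates 1 and 2 and no peak in replicate 3.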

How the data were processed

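Per the labels and deposited file lists, the authors deposited ChIP-seq peak lists on ce10 and ce11 for each of 3 replicates, for the replicates pooled, and for peaks kept by the irreproducible discovery rate. The unit used is the signal of each peak, deposited by the authors' peak caller on its own scale in each list. Neither aligner nor caller is named in the sources used here. A control alignment is named in the deposited file lists and was not analysed here. The ce10 lists were not used, and no coordinates were converted. Summits were taken as deposited and counted from 1.

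Overlap, ranks, motif searches and distances were computed with Python 3.11.15, pandas 2.3.3, NumPy 2.4.6 and Biopython 1.88, and tests with SciPy 1.17.1: Fisher's exact test for counts and permutation of 100000 resamples for medians, 7 tests adjusted by Benjamini-Hochberg. Figures were drawn with matplotlib 3.10.9. Motifs were searched on the sense strand only. The procedure was tested on simulated data. Sequences, gene types and positions are from RefSeq on WBcel235, and all 133 genes were matched in it by type.

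The replicate and pooled lists, made as input to that step, include background, so their strongest 1914 peaks were compared. Genes named are the 20 with the highest reproducible signal among those covered in every replicate, those sharing a peak with another Pol III gene, the 5 unoccupied genes with the highest median percentile, the first 5 with no peak, those missing in a replicate, the nearest promoters and the snoRNA particle genes; others were named after their values were seen. The genes and lists were chosen with earlier results of these data known.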

Additional observations from a re-analysis of the deposited data

How the results depend on the processing

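The occupied share of snoRNA genes outside protein-coding genes was 19.5% with the strongest 957 reproducible peaks and 31.6% with the strongest 1914 of the pooled list, against 25.6% as reported; leaving out each replicate gave 26.3% to 28.6%. That setting also sets the reproducible list aside, since it calls a gene by the strongest 1914 peaks of both other replicates, so the loss of a replicate and the change of list cannot be told apart. The difference by neighbouring promoters turned to 2.56 points with a limit of 250 bp and passed the threshold in no alternative (adjusted p 0.562 to 1.00). The C/D box difference passed with 1 mismatch in the C box (33.2 points) and without replicate 1 (10.4 points), over a range of 6.53 to 10.4 points when each replicate was left out. The B box difference passed in all 12 alternatives (Fisher exact test, adjusted p up to 0.000969) and the T run in all 11 (Fisher exact test, adjusted p up to 0.0392). Several alternatives gave the same counts as each other, so they are not separate checks. The outside against inside differences in occupancy, signal and summit passed in none (lowest adjusted p 0.262, 0.189 and 0.307); the causes of these shifts were not tested. The C box mismatch and the summit limit of 300 bp were added after seeing the data. No paired analysis was possible because all samples form 1 group.

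No reproducible ce11 peak has the interval and summit of a peak in the other ce11 lists, so which call it came from is not known. With no read numbers, a gene without a peak is not shown to lack Pol III. Peaks are wider than the genes, and ChIP does not tell strands apart.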

Other observations

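Several strongly occupied snoRNA genes have an annotated unclassified non-coding RNA on the opposite strand. Such an RNA overlaps 6 of the 34 occupied genes and 3 of the 99 unoccupied genes. At T19B4.8, C41C4.11, H09I01.2 and Y39G10AR.24 it covers the whole snoRNA gene, over 74, 75, 72 and 65 bp. At Y53F4B.48 it covers 133 of 135 bp and at Y23H5B.10 88 of 144 bp. The reproducible signals at these 6 genes lie between 4903 and 7938, and the peaks cannot be assigned to a strand. Among the unoccupied genes it covers the whole of K07C10.2 and C18A3.12, and 21 bp of W06H8.17. K07C10.2 was near the threshold in every replicate, with ranks 1841, 1762 and 1617 in replicate order. C18A3.12 had ranks 16025, 1806 and 1703, so it was far from the threshold in the first replicate. These counts were made after the values were seen and were not tested.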
